A study of Bos taurus with 2 samples.

Results

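Cluster 2 is a group of 2119 cultured bovine satellite cells, 11.1% of the 19096 cells sequenced, in which the myogenic factor MYOD1 was abundant together with genes of the G2 and M phases of the cell cycle, such as TOP2A. Its members are the cells that the authors placed in cluster 2 of 15. Their cluster was worked out cell by cell from the deposited cluster averages, and the sums of the assigned cells differed from those averages in 0 of 252240 gene and cluster pairs. The cells came from the longissimus muscle of 1 male Holstein calf aged 2 weeks, were grown for 1 week in medium with fetal bovine serum, and were sequenced as 2 libraries made from the same culture. There was no treatment and no second animal, so the spread between the libraries (replicates 1 and 2) measures library preparation and sequencing only, and variation among animals is not known. Cluster 2 held 1093 of the 9939 cells of replicate 1 (exact 95% binomial interval 10.4% to 11.6%) and 1026 of the 9157 cells of replicate 2 (10.6% to 11.9%). A barcode seen in both libraries was carried by 7 of its cells.

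In muscle after birth, satellite cells serve as the stem cells. Their dividing progeny, the myoblasts, express the transcription factors MYF5 and MYOD1. Later the myoblasts leave the cell cycle, switch on MYOG and the genes of the contractile apparatus, and fuse into myotubes. G2 is the phase between DNA replication and division. During G2 and M, cyclin B with the kinase CDK1, the Polo and Aurora kinases, the kinesins and the spindle proteins are made for chromosome segregation, and most of them are destroyed again through the anaphase-promoting complex when the cell divides.

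A level is given here as unique molecular identifiers (UMIs, 1 per captured RNA molecule) per 10000 UMIs of the same cells, in each library. Because a molecule was counted at its 3' end, levels were not divided by gene length. Cluster 2 comprised 39544589 UMIs, and its cells had 17481 UMIs and 4041 detected genes at the median. Its shallowest cell had 3135 UMIs and its deepest 52884. Scrublet called 157 of its cells doublets (7.41%, against 6.04% of all cells), and these cells were kept unless stated otherwise.

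The levels of the label genes set cluster 2 apart by their combination. MYOD1, which drives commitment to the muscle lineage, was at 7.02 in replicate 1 and 6.42 in replicate 2. Among the 15 clusters only cluster 13 had a higher mean (6.75 ± 0.354, SD, n = 2 libraries), which held 675 MYOD1 UMIs, and clusters 13, 2 (6.72 ± 0.425) and 3 (6.35 ± 0.244) lay within their spread of each other. Cluster 6 followed at 5.75 ± 0.444 and cluster 4 stood far lower at 2.71 ± 0.0084. The lowest level was that of cluster 9 (0.571 ± 0.151). TOP2A, the topoisomerase that untangles sister chromatids, was at 6.23 and 5.22 in cluster 2 and at 8.10 and 6.88 in cluster 4. The other clusters ranged downward from 5.17 in cluster 7 (median depth only 1389 UMIs), with 1.86 in cluster 6 and 0.159 in cluster 8. Summed over 118 genes of 8 G2/M lists, cluster 2 was the highest of all clusters in both libraries (289.6 and 283.7), ahead of cluster 4 (271.8 and 264.9) and cluster 7 (mean 177.6). The clusters were made by the authors from all genes, these included, so the order is a description and has no test.

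**Figure D1:**
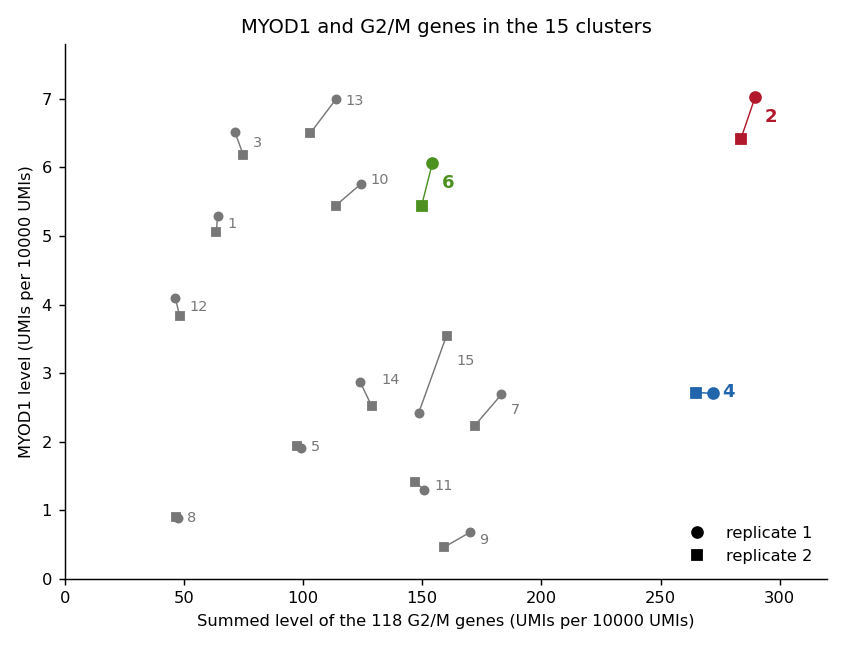
The level of MYOD1 is plotted against the summed level of 118 G2/M genes, both in UMIs per 10000 UMIs, with 1 circle (replicate 1) and 1 square (replicate 2) for each of the 15 clusters, joined by a line. Cluster 2 sits alone in the upper right, cluster 4 has a like G2/M sum at 2.71 MYOD1 UMIs, and cluster 6 has much MYOD1 at a G2/M sum of 152.0.

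MYOD1 was spread over nearly the whole cluster. A MYOD1 UMI was found in 97.3% of its cells in replicate 1 and 98.6% in replicate 2. After each cell was thinned to 5000 UMIs, which left out 10 shallower cells, the shares were 89.6% and 89.8%. The same thinned shares were 53.4% and 53.9% in cluster 4, 86.3% and 84.9% in cluster 6, and 13.99% and 12.3% in cluster 9, which the study took for fibro-adipogenic progenitors and whose median depth was 23011 UMIs against 17481. Without called doublets the shares in cluster 9 were 7.74% and 7.57%. Cluster 9 is given as a reference for background of MYOD1 and MYOG. How much of its share came from free RNA, doublets or low expression was not tested. In the thinned cells of cluster 2 the median was 3 MYOD1 UMIs in both libraries, and its 90th percentile was 7 and 6.

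TOP2A and cyclin B1 (CCNB1, the partner of CDK1 at mitotic entry) were also present in most cells of cluster 2. At 5000 UMIs, 71.2% and 68.2% of its cells had a TOP2A UMI, against 86.0% and 84.6% in cluster 4, 49.8% and 47.6% in cluster 6 and 57.3% and 51.8% in cluster 9. For CCNB1 the shares were 76.3% and 70.7%, against 61.4% and 64.8% in cluster 4, 26.3% and 22.2% in cluster 6 and 45.7% and 41.9% in cluster 9. For these cell cycle genes cluster 9 is no reference for background, because its mean summed G2/M level was 164.7, above the 152.0 of cluster 6. Clusters 1 and 3 had far lower shares. For TOP2A they were 8.76% and 7.35% in cluster 1 and 9.52% and 9.91% in cluster 3. For CCNB1 they were 8.22% and 6.85% in cluster 1 and 7.19% and 8.39% in cluster 3. In cluster 2, MYOD1 and TOP2A were found in the same thinned cell in 64.5% and 61.3% of cases. Of the thinned cells of cluster 2, 973 of 1086 and 919 of 1023 had a MYOD1 UMI, so few were without one. TOP2A was found in 72.0% and 68.2% of the cells with a MYOD1 UMI. In those without one it was found in 63.7% and 68.3%, a difference seen in replicate 1 only and not tested. MYOG, the factor of terminal differentiation, was more patchy. It was found in 21.4% and 20.6% of thinned cells, against 4.63% and 5.601% in cluster 4. In cluster 9 the shares were 7.17% and 5.47%, and 4.76% and 3.90% without called doublets. In cluster 2 the 10% of cells with the most MYOG held 73.6% and 75.4% of its UMIs, against 25.7% and 25.3% for MYOD1. The MYOG share was 30.8% and 34.2% among called doublets and 20.6% and 19.5% without them.

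Tests used cells placed anew. Genes were divided into 2 sets by whether the Ensembl number was even or odd, each cell was placed in the cluster whose profile in the other library best explained its counts of one set, and only genes of the other set were then compared. With even-numbered genes 73.8% of the cells of cluster 2 were placed back in it, and with odd-numbered genes 84.2%. Those that left went mainly to cluster 4 (212 and 158 cells) and cluster 6 (163 and 102 cells). UMIs were summed per library and compared with edgeR's quasi-likelihood test. A gene was called where its Benjamini-Hochberg adjusted p was under 0.05 and its fold change at least 1.5. Levels are those of the deposited clusters and fold changes those of the cells placed anew, so the ratio of 2 printed levels can differ from the fold change beside them. The comparisons below share the cells of cluster 2, and their fold changes are therefore not independent.

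Against all other cells, genes of all 8 G2/M lists were higher in cluster 2, while 13 of 28 muscle structure genes and 8 of 11 fibroblast markers were lower when the other cells were pooled. Of 13090 genes tested, 517 were higher (3.95%) and 945 lower (7.22%). The median of all genes was 0.00038. With the other 14 clusters weighted equally it shifted to a log2 fold change of 0.79, with 2161 genes called higher and 77 lower. That weighting gives shallow clusters the same weight as deep ones. Median UMIs were 1389, 1631, 2513.5 and 647 in clusters 7, 13, 14 and 15, against 17481 in cluster 2. Relative to 0.79, 857 of the higher calls were still at least 1.5-fold up, and 2385 genes lay at least 1.5-fold below, most of them not called. Fold changes under that weighting are therefore given relative to 0.79, while its calls are not. The all-gene median of 0.79 exceeded the 0.585 of a 1.5-fold change. Counts of genes called higher under that weighting are therefore no result about a list by themselves. Standard errors were then large for many genes, among them CDC6 (2.75), PDGFRA (2.34), CCND1 (1.92) and TWIST1 (1.90), so that their positions are imprecise, while those of MYOD1 (0.078) and MYOG (0.138) were small. The muscle list then had 10 genes called higher and 1 lower, with 13 of the 28 below the all-gene median, and 0 fibroblast markers were called, although all 11 lay below that median and their own median was −0.97 relative to it.

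Of the 118 G2/M genes, 103 were called higher and 0 lower, with a median log2 fold change of 1.36. All 118 values were positive, from 0.24 for PKMYT1, an inhibitory kinase of CDK1, to 2.07 for ASPM. ASPM, which organises the spindle poles, was at 3.35 and 3.17 in cluster 2 and at 0.781 and 0.768 in the other cells (SE 0.039, adjusted p = 2.4e-05). Among the cyclins, CDK1 and their regulators, 8 of 12 were higher. CCNB1 was at 2.88 and 2.80 against 0.745 and 0.714, a log2 fold change of 1.87 (SE 0.041, adjusted p = 1.36e-05). CDK1 itself was at 0.700 and 0.699 against 0.250 and 0.236 (log2 fold change 1.56). Of the mitotic kinases and checkpoint genes 17 of 18 were higher, with PLK1, the Polo-like kinase, at 1.87 and 1.91 against 0.524 and 0.522 (1.84). For each of ASPM, CCNB1, CDK1 and PLK1, both library levels in cluster 2 lay above both library levels in the other cells. That order is a description only, because the deposited clusters were made from all genes, these included.

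Motor and structural proteins followed the same order. Of the mitotic kinesins 12 of 13 were higher, led in level by CENPE, the motor that carries chromosomes to the spindle equator (5.08 and 4.75 against 1.41 and 1.36, log2 fold change 1.81). Of the kinetochore and centromere genes 20 of 22 were higher. CENPF, a kinetochore protein that builds up during G2, had the highest level among them, 18.3 and 17.3 against 4.91 and 4.80, with a log2 fold change of 1.87. All 17 spindle genes were higher, among them TPX2, which activates Aurora A (6.33 and 5.98 against 2.03 and 1.88). KNSTRN, a spindle-bound kinetochore protein outside the lists, was higher as well (1.86). All 8 cytokinesis genes were higher too, with PRC1, which bundles the midzone microtubules, at 4.41 and 4.35 against 1.30 and 1.25. Chromosome structure genes were called in 14 of 19, including TOP2A (1.55, SE 0.114, adjusted p = 0.000783) and the DNA-bending protein HMGB2 (1.67). Of the anaphase-promoting complex and its partners 7 of 9 were higher, among them the ubiquitin-conjugating enzyme UBE2C (1.64).

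Of 38 genes of DNA replication tested, 7 were higher and 2 lower, with a median of 0.41. With equal weights 28 were called higher and 0 lower, with a median 0.57 above that of all genes. CDC6, which loads the replicative helicase in G1, was the more reduced of the 2 (−1.30, but −0.67 relative to the all-gene median and not called with equal weights). It was chosen after its values were seen, as were other genes of the lists that are neither among the most abundant nor among the most changed. Of 12 genes of cell cycle exit and the G1 cyclins, the CDK4/6 inhibitor CDKN2C was higher (1.21). CCND1, the cyclin of G1 entry (−0.83), the CDK inhibitor CDKN1A (−0.77) and the stress gene GADD45A (−0.59) were lower, none of them called with equal weights, where they lay at −0.39, −0.43 and −0.37 relative to all genes. The list then had 7 called higher and 0 lower, with a median 0.34 above that of all genes.

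Of 15 myogenic regulators, MYOD1 was the 1 gene called higher. Its log2 fold change was 0.95 (SE 0.060, adjusted p = 0.000485), against levels of 3.71 and 3.52 in the other cells. With equal weights it stood 0.57 above the all-gene median, just under the 0.585 of a 1.5-fold change. In all 1 was higher and 3 lower. Equal weights gave 5 higher and 0 lower, with a list median only 0.077 above that of all genes. A block for the library gave 3 higher and 4 lower. MYOG was lower when cells were pooled (1.16 and 1.01 against 2.25 and 2.32, log2 fold change −0.85, SE 0.040). With equal weights the call turned to higher (0.83, adjusted p = 4.81e-05), though only 0.045 above the all-gene median. MEF2C, a partner factor of MYOG (−3.51), and the fusion protein MYMK (−2.25) were also lower when cells were pooled, and neither was called with equal weights. MYF5 was at 0.736 and 0.668 against 1.02 and 0.964, a log2 fold change of −0.57 that missed the fold threshold. PAX7, the factor of quiescent satellite cells, was close to the detection limit. It was seen in 1.56% and 1.17% of the cells of cluster 2, at levels of 0.00849 and 0.00615. Of 8 inhibitors and E-protein partners of MYOD1, TWIST1 was lower when cells were pooled (−1.13) and −0.20 relative to all genes with equal weights. The most abundant of these, the dominant-negative partner ID1, was at 10.96 and 10.89 against 10.39 and 10.35.

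Genes of the Notch pathway, which holds satellite cells in an undifferentiated state, were called in both directions. The ligand DLL1, at 0.542 and 0.526 against 0.253 and 0.245, was higher (log2 fold change 1.199, SE 0.053, adjusted p = 0.000164), and so was HEYL, a nuclear target of the pathway (0.67). The ligands JAG1 (−2.04) and JAG2 (−0.65) were lower, neither of them called with equal weights, where their standard errors (6.65 for JAG2 and larger for JAG1) leave the fold changes undetermined. The pathway list had 10 tested genes in all. Of 14 surface markers of satellite cells, 2 were higher. These were the receptor FGFR4 (0.80) and the tetraspanin CD82 (0.59), whose call was lost with DESeq2, without TMM, without the filter on low counts and with the deposited clusters.

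Outside the lists, genes that were far lower than in the other cells included ACTA1, skeletal muscle actin (0.0869 and 0.0738 against 1.16 and 1.09, log2 fold change −3.76), the chemokine CXCL5 (−3.59), the fibronectin receptor subunit ITGA5 (−2.07) and the growth factor binding protein IGFBP5 (−1.98). The first 3 were also called with equal weights, and IGFBP5 was not.

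Cluster 4 is the other cluster with a high G2/M sum, and against it muscle structure genes were mostly higher (20 of 23) and fibroblast markers mostly lower (9 of 11). Among 11460 genes tested, edgeR called 432 higher in cluster 2 (3.77%) and 731 lower (6.38%). None of the 118 G2/M genes was called in either direction by edgeR, and none by DESeq2. Their median log2 fold change was 0.013, against 0.0013 for all genes, with 64 values positive and 54 negative. The middle of the distribution was narrow, with quartiles of −0.078 and 0.134 and extremes of −0.59 (the mitotic kinase MASTL) and 0.48 (the cohesin subunit RAD21). Smaller shifts were present. The p was under 0.05 before adjustment in 45 of the genes, and without a minimum fold 22 were higher and 12 lower at an adjusted p under 0.05. With the library as a block, MASTL was called (−0.59, SE 0.193, adjusted p = 0.0382). TOP2A stood at −0.37 (adjusted p = 0.0343), while CCNB1 (0.21), ASPM (0.21), the survivin gene BIRC5 (0.30) and HMGB2 (0.38) were on the other side of 0, all under the fold threshold.

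Myogenic regulators divided between the 2 G2/M clusters. MYOD1 was higher in cluster 2 than in cluster 4, where it was at 2.71 and 2.72 (log2 fold change 1.23, SE 0.059, adjusted p = 3.22e-05). MYOG was at 1.16 and 1.01 against 0.139 and 0.131, a log2 fold change of 3.09 (SE 0.062, adjusted p = 2.34e-06). Called doublets made up 8.99% of cluster 4 and 7.41% of cluster 2, and the MYOG call held without them. MYMK (2.21) and MEF2D, a partner factor of MYOD1 (0.99), were called higher as well. Lower in cluster 2 were MYF5 (1.12 and 1.05 in cluster 4, log2 fold change −0.71, adjusted p = 0.00108) and, at levels near the detection limit, PAX7 (−1.21) and PAX3 (−1.92). Both PAX calls were lost with DESeq2, and that of PAX7 also without the filter on low counts and with the deposited clusters. PAX3 had only 18 UMIs in cluster 2, and its log2 ratios were −1.20 and −2.97 in the libraries. No conclusion is drawn from either PAX call. In all, 4 of the 13 regulators tested were higher and 3 lower, PAX7 and PAX3 among the latter, with a median of 0.21. MYOD1 and MYF5 thus stood in opposite order in the clusters.

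Genes of the contractile apparatus were higher as a group in cluster 2. Of 23 muscle structure genes tested, 20 were higher and 0 lower, with a median of 1.57, and their summed level was 40.9 and 42.2 in cluster 2 against 13.5 and 15.1 in cluster 4. ACTC1, the cardiac actin that developing skeletal muscle also makes, was the most abundant (20.2 and 20.6 against 2.60 and 3.02, log2 fold change 2.85, SE 0.045). Its UMIs were unevenly spread in cluster 2, with 46.5% and 51.5% of them in the 10% of cells with the most and a median of 3 per thinned cell against means of 9.43 and 9.62. Also higher were the calcium sensor TNNC2 (2.29), the giant ruler protein NEB (2.20) and, outside the list, the regulatory light chain MYLPF (2.84). DES, the muscle intermediate filament, was at 4.04 and 3.99 against 1.27 and 1.27 (1.70, adjusted p = 2.6e-06). The tropomyosin gene TPM2 had a log2 fold change of −0.42, which missed the fold threshold. The same list against all other cells had 0 higher and 13 lower of 28, with a median of −0.58, but 10 higher and 1 lower with equal weights and a median 0.12 above that of all genes. The list summed to 320 in cluster 12 and 111 in cluster 3.

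**Figure D2:**
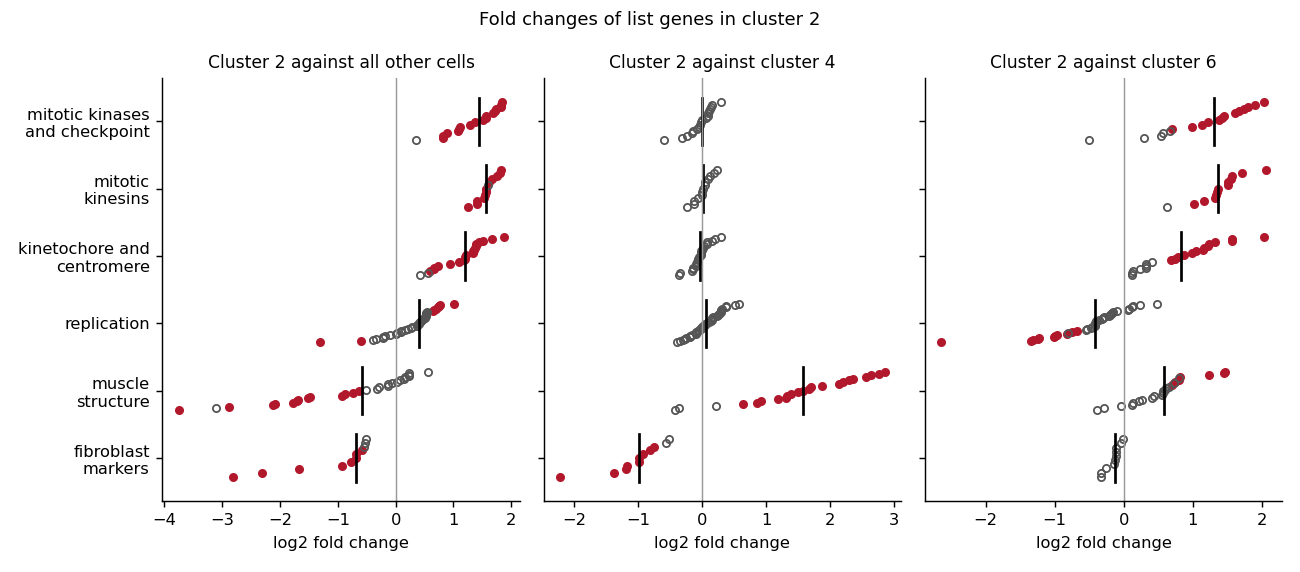
Each point is the log2 fold change of 1 gene between cluster 2 and all other cells (left), cluster 4 (middle) or cluster 6 (right), for 6 gene lists. Filled points were called by edgeR, open points were not, and the bar is the list's median. Mitotic genes lie far right of 0 against all other cells and cluster 6 but around 0 against cluster 4, where muscle structure genes have a median of 1.57 and fibroblast markers one of −0.98.

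Of the 12 genes of cell cycle exit and the G1 cyclins, 2 were higher in cluster 2 than in cluster 4 and 1 was lower, with a median of 0.0047. CDKN1C, a CDK inhibitor that MYOD1 is known to induce, was at 6.79 and 7.03 in cluster 2 and at 1.59 and 1.77 in cluster 4, a log2 fold change of 1.83 (SE 0.070, adjusted p = 1.55e-05). A CDKN1C UMI was found in 68.4% and 69.9% of thinned cells of cluster 2 and in 31.2% and 31.3% of those of cluster 4, beside 21.8% and 21.3% in cluster 9. The cyclin CCND3, which rises with differentiation of myoblasts, was higher as well (0.73), and GADD45A was lower (−0.78). Of 8 inhibitors and E-protein partners, the E-protein gene TCF12 was higher (0.79) while TWIST1 (−0.91) and ID4 (−0.70) were lower. DLL1 was at 0.153 and 0.139 in cluster 4 (log2 fold change 1.90), and JAG1 (−2.36), NOTCH3 (−0.96) and HEY1 were lower in cluster 2. Of the surface markers CD82 was higher (1.197) and CXCR4 and SDC3 were lower, with 2 higher when the library was a block.

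Among the genes most reduced relative to cluster 4, IGFBP5 was at 0.317 and 0.257 against 1.59 and 1.47 (log2 fold change −2.46), and the protease PRSS23 (−2.42), the growth factor FGF7 (−1.78) and the folate enzyme ALDH1L2 (−1.60) were lower too. Of 11 markers of fibro-adipogenic progenitors and fibroblasts, 9 were lower and 0 higher, with a median of −0.98. COL1A1, a chain of type I collagen, was at 18.8 and 19.0 against 47.9 and 48.9 (−1.38), and COL3A1 (−0.92), COL1A2 (−0.76), DCN (−1.17) and LUM (−1.19) had the same direction.

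Cluster 6 resembled cluster 2 in MYOD1 but not in cell cycle phase. Among 11314 genes tested, 322 were called higher in cluster 2 (2.85%) and 168 lower (1.48%). With the library as a block the lower genes numbered 278. Of the G2/M genes 87 were higher and 0 lower, with a median of 1.16 against 0.00074 for all genes. ASPM was at 0.544 and 0.544 in cluster 6 (log2 fold change 2.51), followed by KNSTRN (2.12), CCNB1 (2.10), CENPE (2.06) and CENPF (2.03). TOP2A was at 2.02 and 1.70 in cluster 6 (1.79). Replication genes pointed the other way, with 11 of 38 lower and 0 higher and a median of −0.41. CDC6 was at 0.0599 and 0.0456 in cluster 2 against 0.384 and 0.359 (−2.64, SE 0.143), and the cyclins E, CCNE1 (−1.35) and CCNE2 (−1.32), the helicase subunit MCM3 (−0.74) and the licensing inhibitor GMNN (−0.82) were lower with it. PCNA, the sliding clamp, was at 2.96 and 2.89 against 4.30 and 4.09, a log2 fold change of −0.37 under the fold threshold.

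MYOD1 itself was at 6.07 and 5.44 in cluster 6. Its log2 fold change of 0.23 (SE 0.056, adjusted p = 0.0420) was below the fold threshold. MYOG was higher in cluster 2 (0.822 and 0.618 in cluster 6, log2 fold change 0.97, adjusted p = 0.0126), but not with the deposited clusters, where it was 0.57. The share of called doublets was 15.3% in cluster 6 against 7.41% in cluster 2, and without doublets the log2 fold change of MYOG was 1.33 (edgeR, adjusted p = 0.00164). MYMK was called too (0.92) and was lost with DESeq2 and with the deposited clusters. Of 24 muscle structure genes 7 were higher and 0 lower, with a median of 0.59 and with ACTC1 at 11.3 and 10.2 in cluster 6 (1.24, against 0.83 and 1.01 from the levels of the deposited clusters). DES was at 4.08 and 3.78, a log2 fold change of 0.23 under the fold threshold.

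Of the 11 genes of cell cycle exit and the G1 cyclins tested, 3 were higher in cluster 2 and 0 lower, with a median of 0.32. These were CDKN1C, at 3.03 and 3.11 in cluster 6 (log2 fold change 1.11), CDKN2C (0.98) and the retinoblastoma gene RB1 (0.78). DLL1 was higher (0.84) and JAG2 lower (−0.65), the latter lost with DESeq2 and without doublets. Outside the lists, genes that were lower in cluster 2 included ACACB, a carboxylase of fatty acid metabolism (0.472 and 0.486 against 1.40 and 1.29, −1.36), the sterol enzyme SQLE (−0.77) and the matricellular protein CTGF (−0.75). None of 10 fibroblast markers was called in either direction, with a median of −0.12. COL1A1 was at 18.8 and 19.0 against 21.8 and 21.3.

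Cells within cluster 2 differed widely in how many mitotic transcripts they held. The late G2/M share, the UMIs of a cell in 22 late mitotic genes per 10000 of its UMIs, ran from 9.85 to 156 in replicate 1, with a median of 64.7, and from 12.5 to 161 in replicate 2, with a median of 62.0. The medians were 59.4 and 59.0 in cluster 4 and 20.1 and 19.3 in cluster 6. The distribution in cluster 2 had a single broad peak. Within its range the only empty histogram bin began at 150, in the sparse upper tail of replicate 1.

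**Figure D3:**
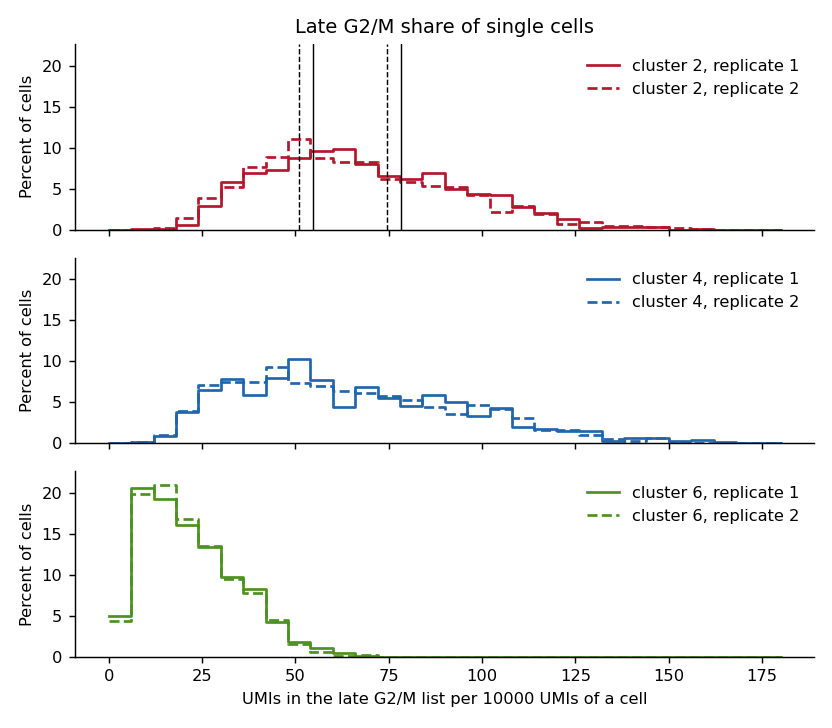
Histograms of the late G2/M share of single cells (UMIs in 22 genes per 10000 UMIs, horizontal) as percent of cells (vertical) in clusters 2, 4 and 6, replicate 1 solid and replicate 2 dashed. Vertical lines mark where the cells of cluster 2 were divided, at 54.7 and 78.3 in replicate 1 and 51.0 and 74.6 in replicate 2, and the bulk of cluster 6 lies below them.

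The cells of each library were ranked by this share and divided into 3 equal parts, and the upper part (364 and 342 cells) was compared with the lower part (365 and 342 cells) over genes that are not in the list. The division is a range, not a type, and 190 and 178 cells had shares within 10% of the lower boundary and 201 and 177 within 10% of the upper one. The parts also differed in depth, with median UMIs of 20894 and 21378 in the upper part against 14747 and 15083 in the lower, and in called doublets, at 0.824% and 0.585% against 15.6% and 15.2%. Of 10215 genes 164 were higher in the upper part (1.61%) and 25 lower (0.245%). With the library as a block these became 263 and 74, and with every cell thinned to 5000 UMIs 96 and 9. Without doublets they were 148 and 25.

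Of the 94 G2/M genes outside the ranking list that were tested, 49 were higher in the upper part and 0 lower, with a median of 0.64 against −0.0047 for all genes. TOP2A had the largest change of the named genes, at 2.70, 5.43 and 9.88 in the lower, middle and upper part of replicate 1 and 1.87, 4.56 and 8.47 in replicate 2 (log2 fold change 1.99, SE 0.132, adjusted p = 7.13e-06). CDK1 went from 0.370 to 1.05 and from 0.278 to 1.13 (1.73). CDCA8, a subunit of the chromosomal passenger complex (1.48), the spindle protein CKAP2L (1.41) and NUSAP1, which binds spindle microtubules (1.39), came next among the named genes. By role, 6 of 10 cyclins, CDK1 and their regulators were higher, 11 of 13 mitotic kinases and checkpoint genes, 6 of 9 spindle genes, 6 of 8 kinesins, 8 of 20 kinetochore genes, 5 of 8 cytokinesis genes, 5 of 19 chromosome structure genes and 2 of 7 of the anaphase-promoting complex and its partners. Replication genes were called in 3 cases, the repressor E2F8 higher (0.78), and the histone mRNA binding protein SLBP (−0.82) and CDC6 (−1.16) lower. With the library as a block the lower genes numbered 4. The CDC6 call was lost under 4 alternatives and those of E2F8 and SLBP with thinned cells.

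MYOD1 did not pass the test across this range. It was at 7.13, 7.02 and 6.94 in the lower, middle and upper part of replicate 1 and at 6.57, 6.60 and 6.15 in replicate 2 (log2 fold change −0.08, SE 0.064, adjusted p = 0.568). None of the 10 myogenic regulators tested was called, and none of the 22 muscle structure genes (median −0.06). With the library as a block, 1 muscle structure gene was called lower. MYOG stood at −0.36 (adjusted p = 0.0168), below the fold threshold. CDKN1C (0.09) and ACTC1 (0.21) were not called either. The brakes CDKN2C (0.75) and RB1 (0.63) were higher with the mitotic share, and the RB1 call was lost with DESeq2 and with thinned cells.

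Few genes were lower in the cells with the most mitotic transcripts. The immediate early gene JUNB, 1 of 8 genes tested of that list, was at 0.690, 0.591 and 0.406 in the lower, middle and upper part of replicate 1 and at 0.744, 0.692 and 0.496 in replicate 2 (log2 fold change −0.68, adjusted p = 0.00288), a call lost when the upper and lower 50% of cells were compared (−0.49). The cardiac-type ankyrin repeat gene ANKRD1 (−0.63) and CTGF (−0.59) were lower as well, and both calls were lost without doublets and with thinned cells. HIST1H2BB (−0.72) is uncertain, because histone genes are near-identical copies and a second gene carries the same symbol. The Notch target HES1 (−0.47) and ID1 (−0.43) missed the fold threshold.

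**Figure D4:**
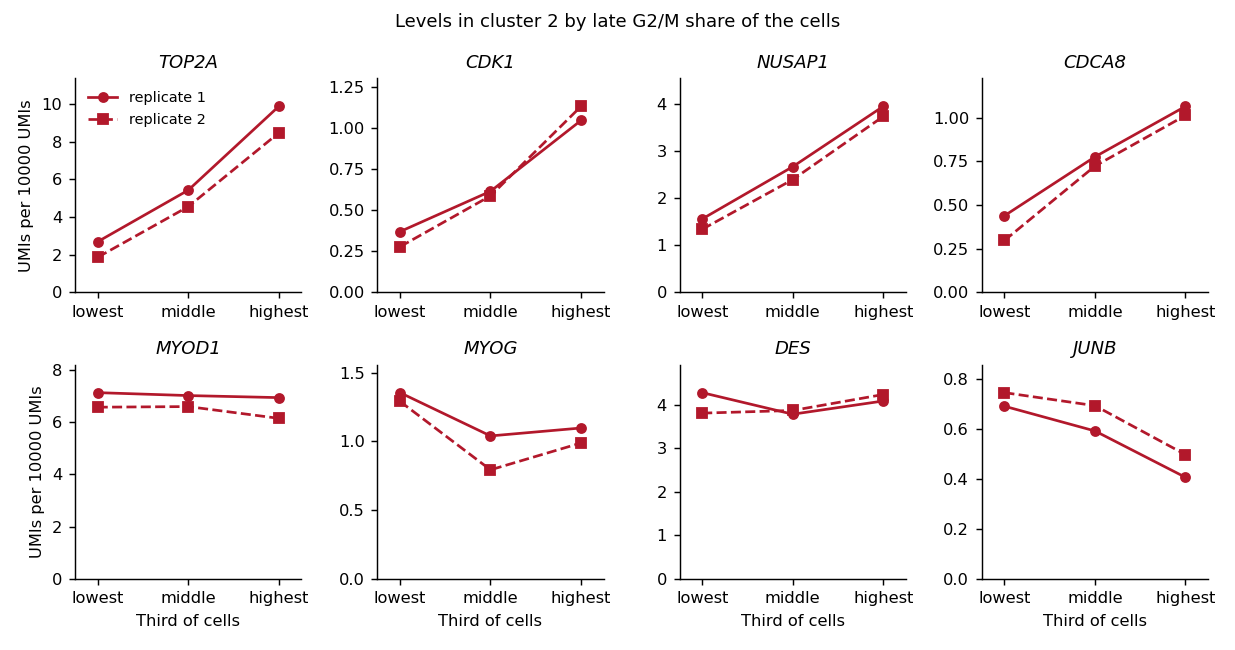
Levels of 8 genes (UMIs per 10000 UMIs, vertical) in the lowest, middle and highest part of the cells of cluster 2 by late G2/M share (horizontal), replicate 1 solid and replicate 2 dashed. TOP2A, CDK1, NUSAP1 and CDCA8 climb in both libraries, MYOD1 stays between 6.15 and 7.13, and JUNB declines to 0.406 and 0.496.

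Markers of other cell types of muscle were checked in cluster 2. The fibro-adipogenic and fibroblast list of 12 genes summed to 90.9 and 91.4 in cluster 2, 172.6 and 177.3 in cluster 4 and 98.6 and 98.6 in cluster 6. Most of it came from collagens, with COL1A2 the most abundant (36.6). The more specific receptor PDGFRA was at 0.121, the adipogenic factor PPARG at 0.00837 and PI16 at 0. Against all other cells 8 of 11 were lower and 0 higher, among them COL1A1 (−0.93), PDGFRA (−1.68, but 0.33 with equal weights, which is −0.46 relative to all genes) and PPARG (−2.82). None of the 11 was called with equal weights.

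Endothelial, immune and most glial markers were at or near 0. The 11 pericyte and smooth muscle markers summed to 7.47 and 7.19, almost all of it ACTA2 (6.57), a gene that cultured myoblasts and fibroblasts also make, while RGS5 was at 0. Of this list 3 were lower and 0 higher against all other cells (9 tested) and against cluster 4 (5 tested). The 7 endothelial markers summed to 0.0125 and 0.0225, with CLDN5 the most abundant at 0.00991. CLDN5 was called higher than in cluster 4 (2.58, adjusted p = 0.0173), a call lost with DESeq2. It had only 39 UMIs in cluster 2 and a level of 0.0029 in cluster 4, so no conclusion is drawn from that call. The 7 immune markers summed to 0.0295 and 0.0251, most of it CD68 (0.0258), and PTPRC, AIF1 and CD74 were at 0. CD14 had 1 UMI in cluster 2 and 66 in all cells. It passed the filter on low counts only through the other cells, so its call as lower there supports no conclusion. Of 5 glial markers S100B alone was detected (0.329), and SOX10 and FOXD3 were at 0. The 9 immediate early and stress genes, which respond to dissociation of tissue, summed to 11.14 and 10.98, with 2 lower and 0 higher against all other cells, JUNB and DDIT3. With equal weights none of the pericyte, immune or immediate early genes was called in either direction.

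**Figure D5:**
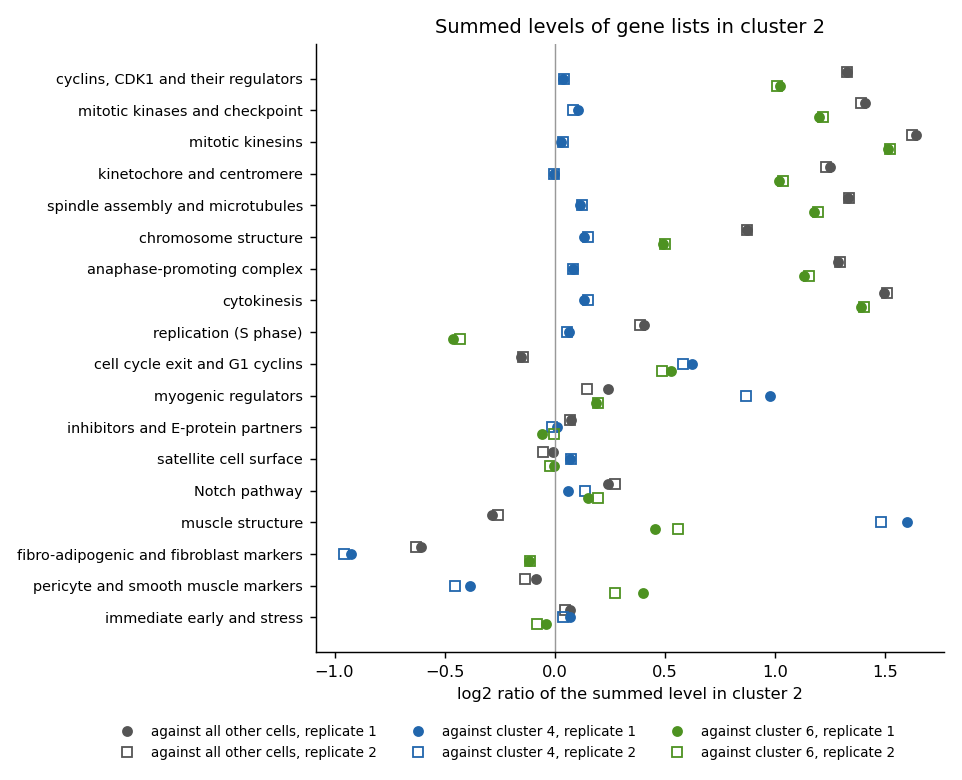
The log2 ratio of the summed level of 18 gene lists in cluster 2 over all other cells (grey), cluster 4 (blue) and cluster 6 (green) is shown for replicate 1 (filled circles) and replicate 2 (open squares), from the deposited clusters. Mitotic lists lie right of 0 in grey and green, muscle structure stands furthest right in blue (from 40.9 and 42.2 over 13.5 and 15.1), and the fibroblast list lies left of 0.

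Over the 15 clusters, the genes whose log2 level was most like that of MYOD1 were IGF2, the embryonic growth factor (Pearson r = 0.922, level 12.4 in cluster 2), SMARCD3, a subunit of the SWI/SNF remodelling complex (0.907), the imprinted gene MEST (0.903), catalase (CAT, 0.896) and CD82 (0.878). These are correlations over clusters of 2 shared libraries, given as a description.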

How the data were processed

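UMI counts of 2 libraries, made by the authors with Cell Ranger 3.0.2 (ARS-UCD1.2, per the labels) and deposited as 1 matrix of 21867 genes and 19096 cells, were analysed. The authors had thinned the reads so that the mean mapped reads per cell were equal between the libraries. The totals of 145631299 and 137818568 UMIs are therefore not the depth as sequenced. The barcode suffix, in the order of the library numbers, gave the library. The authors also deposited the mean count of each gene per cluster, scaled by the authors to a common total. Cluster sums were rebuilt from these averages (within 0.000107 of whole numbers) and each cell's cluster deduced in 32 rounds of elimination. The fold changes and p-values deposited by the authors beside the averages were not used.

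Each cell was placed by multinomial likelihood in a profile with 0.5 UMI added per gene, taken from the other library. Sums per library were tested in edgeR 4.0.16 (R 4.3.3; TMM, filterByExpr, quasi-likelihood, Benjamini-Hochberg over all genes tested in both gene sets). A call needed an adjusted p under 0.05 and a fold of 1.5. Each library gave both arms of a comparison, and the library number therefore paired them. The main test did not use this pairing, so its standard errors and p-values are unpaired. A block for the library was run as an alternative. The log2 ratios of the libraries correlated between arms at 0.660 (10280 genes, each sum holding 20 UMIs or more), 0.502 (10042), 0.515 (10024) and 0.337 (8656) for the comparisons with all other cells, cluster 4, cluster 6 and within cluster 2. Cells are not replicates (n = 2 libraries), and intervals cover counting error only.

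Doublets were called with Scrublet in scanpy 1.11.5 (expected rate 8.0%). Its automatic threshold of 0.7429 called 0 cells of replicate 1, so that of replicate 2 (0.2718) was applied to both, a choice made after seeing this, and 1153 cells were called. DESeq2 1.42.0 was an alternative, and the edgeR test was run on simulated data, where it missed many changes of 1.5-fold and, in most of the comparisons, false calls ran above the threshold of 0.05.

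The cluster, its marker genes and all gene lists were chosen with earlier results of these data known. Genes named were MYOD1, TOP2A, MYF5, MYOG, DES, PAX7 and PAX3, the 3 most abundant of each list, and the 5 most changed called genes per direction and comparison with the same sign in both libraries and at least 1 UMI per 10000 in the higher arm. Within cluster 2 only 4 such genes were lower. Other genes of the lists are named as examples chosen after their values were seen. PTTG1, CCNF, TTN, UNG and the mitochondrial genes were not found by symbol and are not used here. Some genes that the rule names are not reported here. Gene positions and promoter sequences were not used here, and the planned search of promoters for motifs was not run.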

Additional observations from a re-analysis of the deposited data

How the results depend on the processing

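Without a minimum fold, 2128 genes were higher and 2113 lower against all other cells, 1743 and 1791 against cluster 4, 916 and 762 against cluster 6, and 317 and 125 within cluster 2. With the other clusters weighted equally, 2161 were higher and 77 lower, and the values of MYOG (0.83), MYF5 (0.57), CCND1 (0.40), CDKN1A (0.36), GADD45A (0.42), IGFBP5 (0.54), MYMK (0.48), CDC6 (0.12), TWIST1 (0.58) and PDGFRA (0.33) were above 0, where the all-gene median was 0.79. Relative to that median MYOG was at 0.045 and the other 9 stayed below 0.

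With the library as a replicate block, 278 genes were lower against cluster 6, and 263 were higher and 74 lower within cluster 2. Among the genes whose fold changes are printed the block changed the call of MASTL and no other. Among genes of the lists it added 7, 5, 6 and 6 calls in the 4 comparisons and lost 0. The comparison within cluster 2 was the least stable, with 106 higher and 12 lower by DESeq2, 79 and 3 when the upper and lower 50% of cells were compared, 96 and 9 with thinned cells and 15 lower without the filter on low counts.

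The summed G2/M level was 293.9 without doublets, and the share of cells with a MYOD1 UMI was 89.7% after thinning. With 1 library left out there is no test and no count of calls. The level of MYOD1 was then 6.42 to 7.02, the summed G2/M level 283.7 to 289.6 and the MYOD1 share 97.3% to 98.6%. Of 1124 alternative fits of 133 gene results, 1052 kept direction and call, 39 lost the call, 23 gained it and 10 changed sign.

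With 2 libraries of 1 culture the tests measure technical spread only. At the depth of cluster 2, genes under about 0.01 UMIs per 10000, such as PAX7 and PAX3, rest on few molecules.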
